A study of Drosophila melanogaster with 12 samples.

Results

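HmgZ, HmgD and Dsp1 are 3 of the 17807 genes measured in whole Drosophila melanogaster larvae at the third instar, in the wandering phase, and they were picked by their symbols. HmgZ was picked because its count was higher after ribosomal RNA (rRNA) depletion in poly(A)-primed libraries, and HmgD and Dsp1 as its relatives. The poly(A)-primed values are therefore given for these genes as a description, with no test, and the tests below use the random-primed libraries, which were not used to pick them. All larvae were wild type, of the Oregon-R strain, and each RNA sample came from a pool of 40 animals, so every value averages over animals and tissues. Total RNA of 3 such pools was either passed through Ribo-Pop, in which biotinylated antisense oligonucleotides pull rRNA out of the sample (depleted), or used directly (input). Both portions were made into random-primed libraries, which read RNA with or without a poly(A) tail along its length, and into poly(A)-primed libraries (QuantSeq), which read from the 3′ ends of polyadenylated RNA. The 4 groups were thus random-primed depleted, random-primed input, poly(A)-primed depleted and poly(A)-primed input, with 3 libraries each. By the paper's methods, poly(A)-primed libraries took far less RNA by mass after depletion than from the input. The paper describes the random-primed amounts as matched. In the poly(A)-primed contrast, depletion and RNA mass therefore cannot be told apart. All groups also share synthetic RNA spike-ins, which had been mixed in ahead of the depletion. In RNA from whole animals, fewer cells of a type and less RNA per cell cannot be told apart.

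The HMG box is a small DNA-binding fold that enters the minor groove and bends the double helix. HmgD and HmgZ are close relatives with a single HMG box and a charged tail, bind DNA with little sequence preference, and loosen or replace linker histone contacts in chromatin. HmgD is known as an abundant chromatin protein of the early fly embryo, before linker histone H1 appears. Dsp1 carries a pair of HMG boxes, resembles mammalian HMGB1, acts with Dorsal (dl) as a corepressor, and takes part in the recruitment of Polycomb proteins to their response elements.

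HmgZ (FBgn0010228) and HmgD (FBgn0004362) lie side by side on chromosome arm 2R, on opposite strands. In the BDGP6.54 annotation HmgZ spans 21697488 to 21707861 on the minus strand and HmgD spans 21701458 to 21716727 on the plus strand. The gene bodies overlap over 6404 bp, from 21701458 to 21707861. No exon of one gene overlaps an exon of the other, and the overlap consists of first exons and first introns. HmgD also overlaps CG30403 and lncRNA:CR44749, both on the opposite strand. Both genes have 4 annotated transcripts of 3 exons, and the transcripts of a gene share 1 coding length, which gives proteins of 111 amino acids for HmgZ and 112 for HmgD. The transcripts of each gene end at 2 sites, which lie 502 bp apart in HmgZ and 360 bp apart in HmgD. HmgZ transcripts therefore have a 3′ UTR of 132 or 634 nt, against 487 or 847 nt in HmgD. Dsp1 (FBgn0278608) lies on the X chromosome, from 16333612 to 16340624 on the plus strand, and overlaps no other annotated gene. It has 7 transcripts of 5 to 7 exons, proteins of 385 to 397 amino acids, and 3′ UTRs of 964 to 2817 nt. Annotated exons cover 15.5% of the HmgZ gene, 12.9% of HmgD and 69.3% of Dsp1. Sequences of these genes were not used here.

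**Figure D1:**
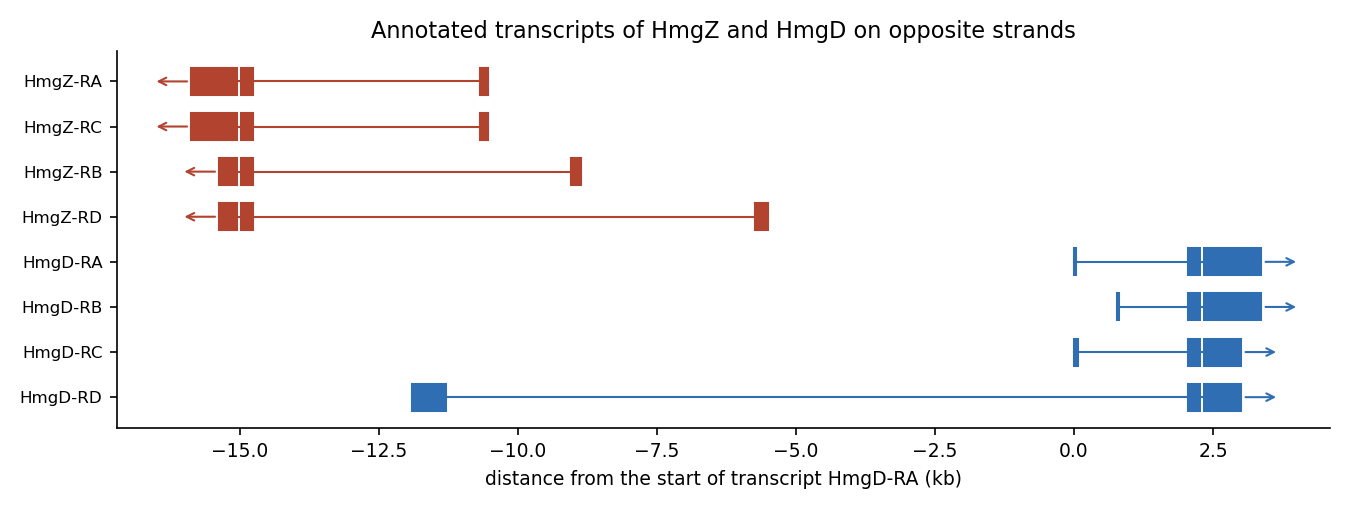
Annotated transcripts of HmgZ (red, minus strand) and HmgD (blue, plus strand) in BDGP6.54, drawn to scale against the distance in kb from the start of transcript HmgD-RA. Boxes are exons, lines are introns and arrows give the direction of transcription. The gene bodies overlap over a stretch of 6404 bp, in which no exon of one gene overlaps an exon of the other.

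The depth differed sharply between groups. The random-primed depleted libraries held 14264502 to 16889144 estimated counts, of which 9037947 to 12422418 fell on genes other than rRNA, against 428039 to 596423 such counts in the random-primed input libraries. rRNA, the target of the depletion, took 23.7% to 33.4% of the counts in random-primed depleted and 96.2% to 97.3% in random-primed input libraries. The poly(A)-primed libraries held 3542229 to 5301632 uniquely mapped reads on genes after depletion and 4102646 to 6306874 in the input. Markers of larval tissue were abundant: the 5 fat body genes (Lsp1alpha, Lsp1beta, Lsp1gamma, Lsp2 and Fbp1) summed to 54135 to 66849 CPM (counts per 1000000 counted) in random-primed depleted and 54791 to 64251 CPM in random-primed input libraries. Of the germline markers vas, nos and bam, none passed the filter on low counts, and of the adult yolk protein genes 1 of 3 passed in the random-primed libraries, with a sum of no more than 3.58 CPM in depleted and 4.91 CPM in input libraries. Of 6 salivary gland genes 3 fell and none rose under either priming, where 2.28% of all tested genes fell in random-primed and 3.85% in poly(A)-primed libraries. With the RNA sample as a block in the test, 2 of the 6 rose and 3 fell in random-primed libraries, and none rose and 4 fell in poly(A)-primed libraries. Of all tested genes 2.44% rose and 5.43% fell with the block in random-primed, and 8.28% rose and 11.6% fell in poly(A)-primed libraries. The random-primed sum of the 6 salivary gland genes was 10229 to 15894 CPM in depleted and 15771 to 18101 CPM in input libraries. The part of these markers in the values below was not tested.

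HmgZ, HmgD and Dsp1 were well expressed. In random-primed libraries HmgZ was moderately higher after depletion, and only the test with the RNA sample as a block called it. Unless stated otherwise, CPM values leave out the spike-ins and are scaled by the TMM method. Those of random-primed libraries also leave out rRNA, while those of poly(A)-primed libraries keep the uniquely mapped rRNA reads. HmgZ was measured at 237, 238 and 263 CPM in the random-primed depleted libraries and at 201, 181 and 179 CPM in the random-primed input libraries. All depleted libraries were thus above all input libraries, with the highest depleted value in replicate 3. These levels rested on 2304 to 3037 estimated counts per depleted library and 73 to 110 per input library. The fold change was 1.31 (log2 fold change 0.39, standard error 0.14, 95% interval 0.09 to 0.69), and it did not pass the test over all 10893 genes (unadjusted p = 0.0150, adjusted p = 0.26 by the quasi-likelihood test of edgeR, adjusted after Benjamini and Hochberg). With the RNA sample, taken as the replicate number, as a block in the same edgeR test, HmgZ did pass, at 0.38 on the log2 scale (standard error 0.09, adjusted p = 0.010). All 3 differences between libraries of the same number were positive, at 0.23, 0.39 and 0.55.

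HmgD was measured at 334, 335 and 369 CPM in the random-primed depleted libraries and at 316, 318 and 270 CPM in the random-primed input libraries. The groups again did not overlap, but by a smaller margin. Its log2 fold change of 0.19 (standard error 0.14, 95% interval -0.11 to 0.50) did not pass the test (adjusted p = 0.67, edgeR). Dsp1 was measured at 159, 164 and 182 CPM in the random-primed depleted libraries, against 199, 168 and 160 CPM in the random-primed input libraries. Here the groups overlapped, and the log2 fold change was -0.06 (standard error 0.14, 95% interval -0.38 to 0.25, adjusted p = 0.92, edgeR). Its sign turned without input replicate 1, where the log2 fold change was 0.05.

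Without the block, none of the 3 genes was called in the random-primed libraries by edgeR or by DESeq2, and 1 of them, HmgZ, had an unadjusted p under 0.05. With the block in edgeR, 1 of the 3 was called, HmgZ, while 2.44% of all tested genes were called higher and 5.43% lower. HmgD and Dsp1 then had an adjusted p of 0.24 and 0.76 (edgeR). Without it, at an adjusted p under 0.05, 0.0643% of all tested genes were higher and 2.28% lower after depletion, 2.34% in all. Depleted libraries were all above input libraries in 2 of the 3 genes, and in 10.3% of all tested genes, while 9.87% of genes had them all below. The intervals without the block hold pool differences as well as counting error. For HmgZ they run up to a 1.61-fold increase, for HmgD to 1.41-fold and for Dsp1 to 1.19-fold. With the block the standard errors of the log2 fold changes were 0.09, 0.08 and 0.10, against 0.14 for each gene without it. Under the scaling used the median log2 fold change of all tested genes was 0.06, and under spike-in scaling it was -0.10.

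In the poly(A)-primed libraries, the contrast that picked it, HmgZ stood far from its relatives. It was measured at 372, 540 and 505 CPM in the poly(A)-primed depleted libraries and at 178, 113 and 186 CPM in the poly(A)-primed input libraries. These values rested on 1903, 2744 and 1561 reads after depletion and 850, 702 and 678 reads in the input. Every depleted library held more than every input library, and replicate 2 had both the highest depleted and the lowest input value. The fold change was 2.97 (log2 fold change 1.57, standard error 0.21), the 4th highest of 9530 tested genes. Between libraries of the same number, the log2 difference was 1.06, 2.26 and 1.44.

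HmgD was measured at 310, 286 and 311 CPM in the poly(A)-primed depleted libraries, against 240, 249 and 260 CPM in the poly(A)-primed input libraries. The groups did not overlap, and the log2 fold change was 0.28 (standard error 0.14). Dsp1 was much lower, at 28.9, 36.0 and 28.8 CPM in the poly(A)-primed depleted libraries and 34.6, 35.2 and 26.6 CPM in the poly(A)-primed input libraries. Its groups overlapped and the log2 fold change was -0.04 (standard error 0.18). In this contrast 0.997% of all tested genes were called higher and 3.85% lower at an adjusted p under 0.05, 4.85% in all. All depleted libraries were above all input libraries in 11.4% of genes and below them in 14.4%. Under spike-in scaling the calls split into 4 higher and 119 lower, against 95 higher and 367 lower under the scaling used. With the RNA sample as a block, 8.28% of all tested genes were called higher and 11.6% lower.

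**Figure D2:**
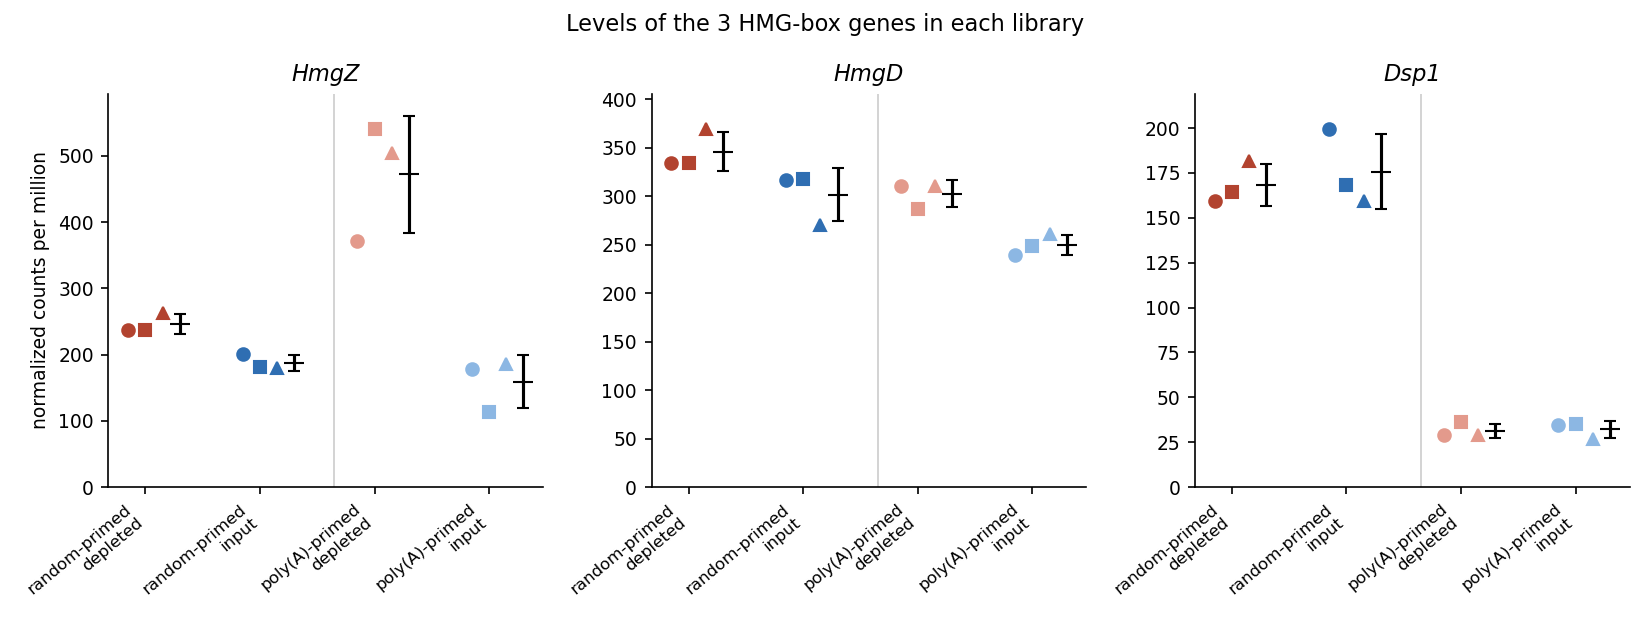
TMM-scaled CPM of HmgZ, HmgD and Dsp1 in each of the 12 libraries, with circles, squares and triangles for replicates 1, 2 and 3 and black bars for the mean and SD of 3 libraries. HmgZ reaches 372 to 540 in poly(A)-primed depleted libraries against 113 to 186 in poly(A)-primed input, while its random-primed values lie between 179 and 263.

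**Figure D3:**
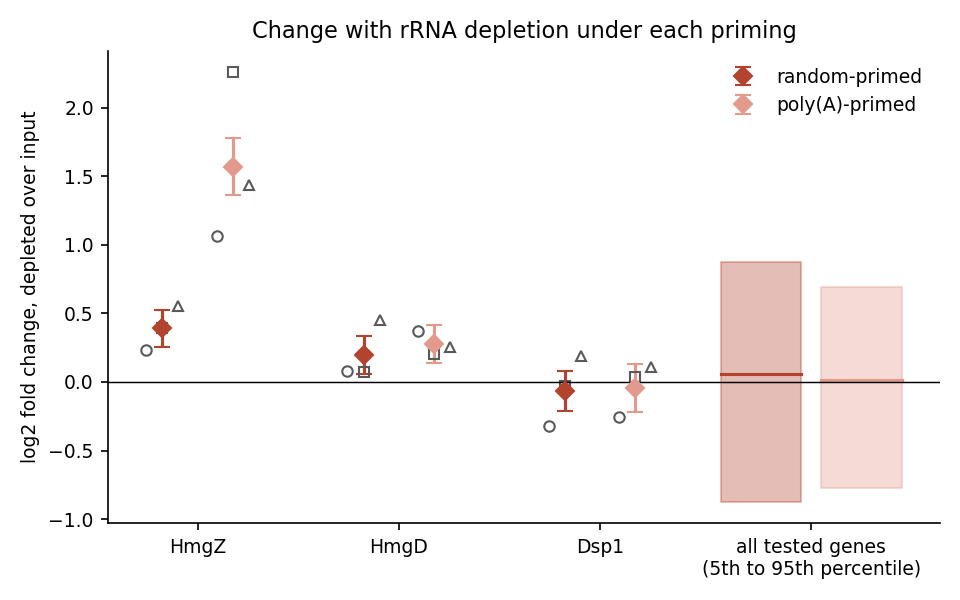
Log2 fold change of depleted over input libraries under random (dark red) and poly(A) priming (light red), with diamonds and bars for the fitted value and its standard error, and open symbols for the differences between libraries of the same number. The shaded bars span the 5th to 95th percentile of all tested genes. Among these 6 values, that of HmgZ under poly(A) priming, 1.57, is the one above the shaded range.

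Set side by side, the poly(A)-primed log2 fold change of HmgZ, 1.57, lay above the upper end of its random-primed interval, 0.69. For HmgD the values were 0.28 and 0.19, and for Dsp1 -0.04 and -0.06, under poly(A) and random priming. Whether the effect of depletion differed between the primings was not tested, because the poly(A)-primed values had picked HmgZ. Under poly(A) priming the RNA mass also differed between depleted and input libraries.

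The rRNA share of the poly(A)-primed libraries, as estimated counts, also differed between libraries. It was 7.64%, 21.9% and 23.4% in depleted replicates 1, 2 and 3, where HmgZ was at 372, 540 and 505 CPM. In the input libraries it was 13.4%, 5.09% and 13.8%, where HmgZ was at 178, 113 and 186 CPM. Within each group the library with the least rRNA also had the least HmgZ. The sums of fat body and cuticle markers were lower in the same contrast, while those of muscle and neuron markers were not. The sum of the 5 fat body genes was 17885 to 20996 CPM in poly(A)-primed depleted and 24563 to 29325 CPM in poly(A)-primed input libraries, and 1 of them, Lsp1beta, was called lower. The sum of 4 larval cuticle genes was 30323 to 44016 CPM in poly(A)-primed depleted and 51762 to 64227 CPM in poly(A)-primed input libraries, and 2 of them, Lcp1 and Lcp2, were called lower. With the block the counts called lower were 2 of 5 and 3 of 4. Over all tested genes 3.85% were called lower without the block and 11.6% with it. The fat body and cuticle sums did not overlap between the groups. The sum of 4 muscle markers did, at 1386 to 3936 CPM in poly(A)-primed depleted and 1279 to 3260 CPM in poly(A)-primed input libraries. Neuron markers summed to 19.3 to 23.3 CPM in depleted and 16.1 to 17.4 CPM in input libraries, higher after depletion with no overlap. The sum of 6 salivary gland markers overlapped, at 51974 to 88059 CPM in poly(A)-primed depleted and 77214 to 102755 CPM in poly(A)-primed input libraries. Of these 6 markers 3 were called lower without the block. No muscle or neuron marker was called without the block. With it 3 of the 4 muscle markers rose and no neuron marker was called, where 8.28% of all tested genes rose. The part of rRNA and of these markers in the HmgZ values was not tested.

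The balance between HmgZ and HmgD within a library does not depend on how libraries are scaled. In random-primed libraries HmgZ made up 41.5%, 41.5% and 41.6% of the summed HmgZ and HmgD counts after depletion. In the input it made up 38.9%, 36.3% and 39.9%, each with a wide exact binomial 95% interval, such as 30.9% to 42.1% in replicate 2 (counting error only). The 3 depleted values therefore lie within the intervals of all 3 input libraries. On the log2 scale the HmgZ/HmgD ratio was -0.49 ± 0.004 in depleted and -0.68 ± 0.11 in input libraries (SD, n = 3 each), a difference of 0.19 (p = 0.1 in a two-sided exact permutation test, which treats the libraries as unpaired and cannot go lower with 3 against 3).

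The ratios of both small HMG genes to Dsp1 were larger in every random-primed depleted than in every random-primed input library. The log2 HmgZ/Dsp1 ratio was 0.55 ± 0.02 in random-primed depleted and 0.10 ± 0.08 in random-primed input libraries (SD, n = 3 each), a difference of 0.45. For HmgD/Dsp1 it was 1.04 ± 0.02 in depleted and 0.78 ± 0.13 in input libraries (SD, n = 3 each), a difference of 0.26. Each of the 3 ratios gave p = 0.1 by exact two-sided permutation test, and 0.1 after Benjamini-Hochberg adjustment over the 3, so none can pass a threshold of 0.05 with 3 libraries a group.

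In poly(A)-primed libraries HmgZ made up 54.5%, 65.4% and 61.9% of the summed HmgZ and HmgD counts after depletion, against 42.6%, 31.2% and 41.7% in the input. This contrast picked HmgZ, so these shares are a description, and their exact binomial 95% intervals cover counting error only. The intervals of depleted libraries began at 52.8% or above, and those of input libraries ended at 44.8% or below. HmgZ was thus the larger of the 2 counts in all poly(A)-primed depleted libraries and the smaller in the other 9 libraries. The spread between replicates was far above counting error in these libraries. As geometric means, the HmgZ/HmgD count ratio was 1.54 in poly(A)-primed depleted libraries, 0.62 in poly(A)-primed input, 0.71 in random-primed depleted and 0.62 in random-primed input libraries. The 2 input values are thus close under both primings.

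**Figure D4:**
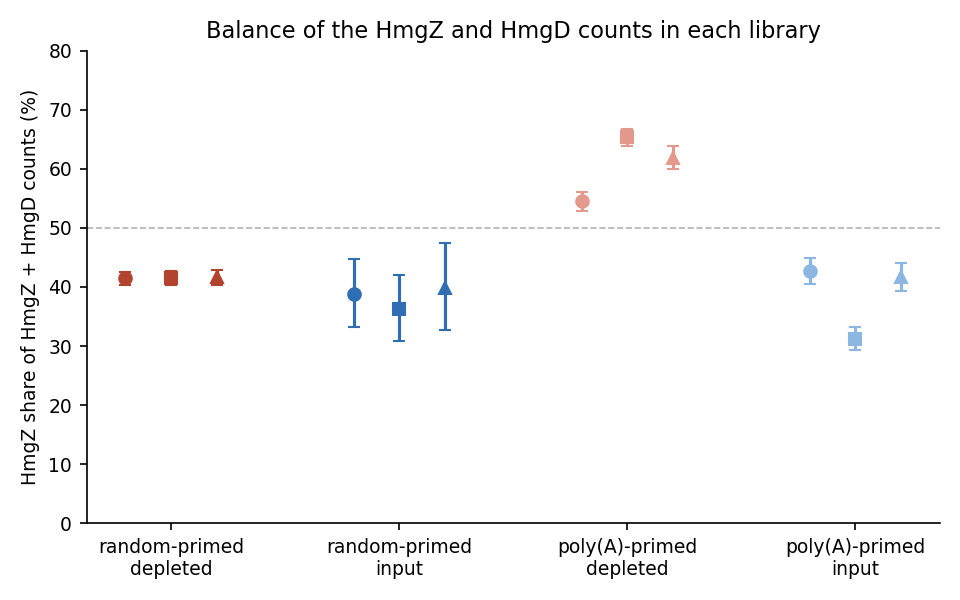
Share of HmgZ in the summed HmgZ and HmgD counts of each library, in percent, with exact binomial 95% intervals that cover counting error only (circles, squares and triangles for replicates 1, 2 and 3). The dashed line marks equal counts at 50%. The 3 poly(A)-primed depleted libraries lie above it, at 54.5% to 65.4%, and the other 9 below it, at 31.2% to 42.6%.

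Recovery was the ratio of a gene's counts to the spike-in counts after depletion, as a percent of that ratio in the input library of the same number. HmgZ was recovered at 108%, 118% and 128% in random-primed libraries, with a mean of 118% ± 10.1 (SD, n = 3). HmgD was recovered at 96.5%, 94.6% and 119%, with a mean of 103% ± 13.6 (SD, n = 3). Dsp1 was recovered at 73.1%, 87.8% and 99.1%, with a mean of 86.7% ± 13.0 (SD, n = 3). Protein-coding genes as a sum were at 89.3% ± 0.33 (SD, n = 3). All HmgZ values were above this sum, and in each gene replicate 3 gave the highest recovery. By the same measure in poly(A)-primed libraries, HmgZ was at 184%, 511% and 255%, HmgD at a mean of 116% ± 5.7 (SD, n = 3), and Dsp1 at 73.7%, 109% and 102%. A value above 100% means a larger ratio to the spike-ins after depletion than before.

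Random-primed libraries cover whole transcripts, so levels can be compared between genes per length. Counts on spliced transcripts were divided by the length of the longest annotated transcript. The CPM here were scaled to the counts outside rRNA and spike-ins of each library, without TMM scaling. HmgD was highest, at 226 ± 3.3 CPM per kb in random-primed depleted and 188 ± 19.6 CPM per kb in random-primed input libraries. HmgZ followed at 191 ± 6.7 CPM per kb in depleted and 140 ± 12.2 CPM per kb in input libraries, and Dsp1 was lowest at 32.5 ± 0.89 and 33.3 ± 4.2 CPM per kb in depleted and input libraries (SD, n = 3 for each value). HmgD stood above HmgZ and HmgZ above Dsp1 in all 6 random-primed libraries, and no ranges overlapped within a group. This order was the same when the mean transcript length of a gene was used.

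These genes had unlike weight under the 2 primings. A long transcript gives more random-primed reads than a short one, whereas poly(A) priming reads transcripts from their 3′ ends whatever their length. The CPM values compared here are estimated counts under both primings. They were scaled to the counts outside rRNA and spike-ins of each library, without TMM scaling. Dsp1, with transcripts of 2205 to 4511 nt, was 0.226 times its random-primed CPM in poly(A)-primed depleted and 0.195 times in poly(A)-primed input libraries. HmgD, with transcripts of 967 to 1495 nt, was at 1.01 times after depletion and 0.874 times in the input. HmgZ, with transcripts of 707 to 1188 nt, was at 2.21 times after depletion and 0.854 times in the input. The median over 9122 genes was 0.719 after depletion and 0.716 in the input. After depletion 90.9% of genes had a lower ratio than HmgZ and 65.6% a lower one than HmgD, against 56.3% and 57.1% in the input. The part of transcript length in these ratios was not tested.

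Intronic sequences, which mark unspliced RNA, took an unlike share of each gene's counts. In random-primed libraries the intronic share of HmgZ was 9.10% ± 1.43 in depleted and 9.22% ± 2.52 in input libraries (SD, n = 3 each). For HmgD it was 3.47% ± 0.42 in depleted and 5.08% ± 1.37 in input libraries (SD, n = 3 each), and for Dsp1 13.6%, 12.3% and 16.1% in the depleted and a mean of 12.8% ± 1.55 in the input libraries (SD, n = 3). All tested genes together had 7.56% ± 0.58 after depletion and 8.45% ± 0.36 in the input. Depleted and input libraries overlapped for each of the 3 genes (exact two-sided permutation test, p = 1 for HmgZ, 0.2 for HmgD and 0.6 for Dsp1). In the random-primed depleted libraries, where the shares rest on 128 counts or more, Dsp1 was above HmgZ and HmgZ above HmgD in all 3 libraries. In poly(A)-primed libraries no HmgZ library had an intronic share above 0.475%, and no more than 6 counts of HmgZ were intronic.

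The 2 ways of counting gave close values for these genes. Estimated counts amounted to 91.9% to 95.5% of the uniquely mapped reads of HmgZ in poly(A)-primed depleted and 90.0% to 93.5% in poly(A)-primed input libraries. For HmgD the ranges were 91.3% to 94.3% and 93.4% to 94.5%, and for Dsp1 95.5% to 98.6% and 92.8% to 96.4%, in depleted and input libraries. Uniquely mapped counts leave out reads that fit elsewhere equally well, and the sequence shared by HmgZ and HmgD was not measured here. Kallisto was run by strand and HTSeq with its default settings, and the reads in the overlapping stretch were not measured separately.

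Other fly genes with an HMG box were not called without the block. Of 20 symbols listed, 18 were in the table and all of these were tested in random-primed libraries, where none rose or fell at an adjusted p under 0.05 in edgeR or in DESeq2. At an unadjusted p under 0.05 edgeR gave 1 of them, Sox15. The median log2 fold change was -0.06, against 0.06 for all tested genes. The largest values were those of Sox15 (-0.84, standard error 0.34), a transcription factor of the wing, of Sox21b (0.67, standard error 0.49), a transcription factor of the Sox family, and of tHMG2 (0.51, standard error 0.44), a small HMG protein of the testis. Ssrp, the HMG-box subunit of the FACT histone chaperone, was at -0.05 (standard error 0.22). In poly(A)-primed libraries 13 were tested and none was called by either tool, 2 having an unadjusted p under 0.05, with a median of 0.08. With the block none was called in random-primed libraries, and 2, Bap111 and tHMG1, named after their values were seen, fell in poly(A)-primed libraries. Over all tested genes 11.6% fell with the block in poly(A)-primed libraries.

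Of 27 genes for nucleosome assembly, remodelling and insulation, none rose and 1 fell in random-primed libraries, where 0.0643% of all tested genes rose and 2.28% fell. With the block 2 rose and 2 fell, where 2.44% of all tested genes rose and 5.43% fell. The gene called without the block was His3.3A, which encodes the replacement histone H3.3, at -0.92 on the log2 scale (standard error 0.18, adjusted p = 0.017, edgeR). Its mean was 37.1 CPM in random-primed depleted and 70.7 CPM in random-primed input libraries. The next largest values were those of BigH1, an embryonic linker histone (-0.61, standard error 0.66), and Chrac-16, a small histone-fold subunit of remodelling complexes (0.52, standard error 0.40). The median of the 27 genes was 0.11. Under poly(A) priming the same gene fell, by 0.61 on the log2 scale (adjusted p = 0.033, edgeR), and 1 gene rose, where 0.997% of all tested genes rose and 3.85% fell. With the block 4 rose and 2 fell, where 8.28% of all tested genes rose and 11.6% fell. The gene that rose without the block was His3.3B, which encodes the same H3.3 protein and was named after its value was seen, at 0.70 on the log2 scale (adjusted p = 0.046, edgeR), with a mean of 601 CPM in poly(A)-primed depleted against 371 CPM in poly(A)-primed input libraries. The random-primed value of His3.3B was 0.28 (adjusted p = 0.66, edgeR), and with the block it was 0.26 (adjusted p = 0.0050, edgeR).

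Without the block, none of the 22 Polycomb genes and partners of Dsp1 rose or fell in random-primed libraries in edgeR, while 2 had an unadjusted p under 0.05 and DESeq2 called 1. Their median log2 fold change was -0.07. The largest values were those of Pcl, a partner of the Polycomb methyltransferase complex (-0.77, standard error 0.24), escl, a subunit of that complex (-0.77, standard error 0.37), and calypso, a deubiquitinase of the Polycomb group (0.50, standard error 0.43). dl itself was at -0.17 (standard error 0.22). Under poly(A) priming 21 were tested and none was called by either tool, 2 having an unadjusted p under 0.05, with a median of 0.05. With the block 1 gene, psq, fell in random-primed libraries and 1, pho, rose in poly(A)-primed libraries, both named after their values were seen. Over all tested genes 5.43% fell with the block in random-primed and 8.28% rose in poly(A)-primed libraries.

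As markers of dividing cells of the imaginal discs, brain and gonads, 15 genes of DNA replication and the cell cycle were compared. Their depleted and input libraries came from the same pools. In random-primed libraries none rose and 3 fell: RnrL, a subunit of ribonucleotide reductase (log2 fold change -1.25, standard error 0.26, adjusted p = 0.022), CycB, a mitotic cyclin (-1.20, standard error 0.23, adjusted p = 0.016), and stg, the Cdc25 phosphatase that starts mitosis (-1.16, standard error 0.23, adjusted p = 0.021, all from edgeR). Over all tested genes 2.28% fell. The other 12 were not called, and the median over the 15 was 0.03. Their summed level was 464 to 470 CPM in random-primed depleted and 504 to 592 CPM in random-primed input libraries. Under poly(A) priming none rose and 3 fell, among them RnrL and stg, where 3.85% of all tested genes fell, and the sum was 241 to 272 CPM in depleted and 313 to 325 CPM in input libraries. The other was PCNA, the sliding clamp of DNA replication, named after its value was seen, at -0.79 (adjusted p = 0.012, edgeR). With the block none rose and 4 fell in random-primed libraries, and 1 rose and 6 fell in poly(A)-primed libraries. Over all tested genes 2.44% rose and 5.43% fell with the block in random-primed, and 8.28% rose and 11.6% fell in poly(A)-primed libraries. The summed level of the 15 genes was thus lower in all depleted than in all input libraries under both primings. Of all single tested genes, 9.87% in random-primed and 14.4% in poly(A)-primed libraries had this order. The random-primed median of 0.03 shows that the lower sum there does not hold gene by gene. HmgZ was higher in depleted libraries under both primings. The part of the 15 genes in the HmgZ values was not tested.

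**Figure D5:**
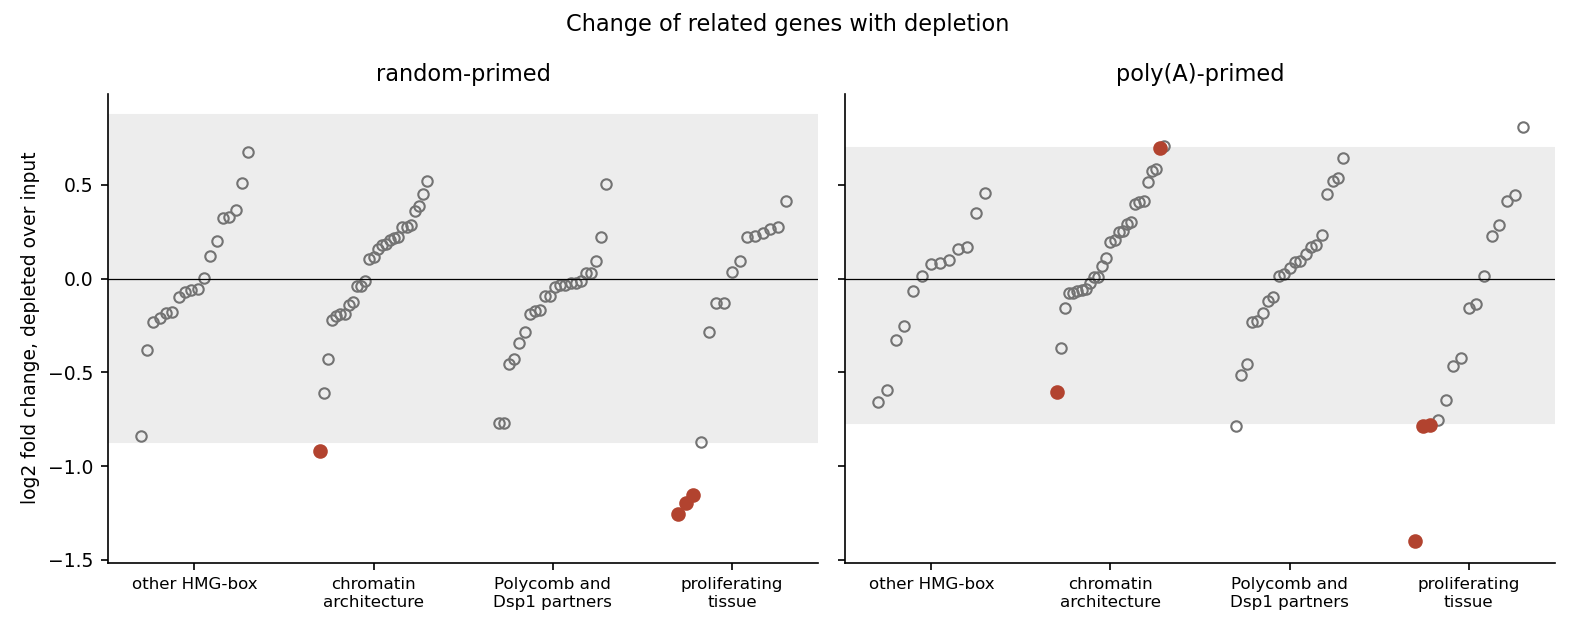
Log2 fold change of depleted over input libraries for the members of 4 gene lists, 1 circle a gene, in random-primed (left) and poly(A)-primed libraries (right). Filled circles passed an adjusted p under 0.05 in edgeR's quasi-likelihood test without the block, and the grey band spans the 5th to 95th percentile of all tested genes. Filled circles below 0 are 4 in random-primed and 4 in poly(A)-primed libraries, and 1 lies above 0, His3.3B in poly(A)-primed libraries.

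The genes nearest to HmgZ over the 12 libraries were lost, Ank (an ankyrin), CG8209, Bacc and CG6357. Nearness was the root-mean-square difference of log2(CPM + 0.5), after each gene was centred on its mean within each priming. These CPM were estimated counts scaled to the counts outside rRNA and spike-ins, without TMM scaling. The difference was 0.289 to 0.313 for these 5 genes, against a median of 0.655 over the 3546 genes compared. Their poly(A)-primed log2 fold changes were 0.93 for lost, 0.94 for Ank, 0.81 for CG8209, 0.80 for Bacc and 0.85 for CG6357, all below the 1.57 of HmgZ. In random-primed libraries these 5 genes were between 0.03 and 0.35. HmgD ranked 569th by its distance to HmgZ (0.528) and Dsp1 1667th (0.645). HmgD had l(1)G0193, Cyt-b5 and eIF3k at distances of 0.0646 to 0.0746, against a median of 0.268 over the genes compared. Dsp1 had spir, E2f1 and Trf2 at 0.0983 to 0.104, against a median of 0.278. The 12 libraries include the poly(A)-primed ones that picked HmgZ. Its distances and the folds of its nearest genes follow in part from that choice and are a description only.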

How the data were processed

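The authors trimmed the reads, assigned those of all 12 libraries with Kallisto, by strand, to transcripts, spike-ins and introns of Ensembl release 99, and deposited the estimated counts per gene. They also deposited counts of uniquely mapped reads per gene for the 6 poly(A)-primed libraries, from STAR and HTSeq with default settings. Neither table was normalized. Summary lines of the second table, 7.81% to 9.88% of its reads, were left out. A table of the authors' DESeq2 fold changes and p-values was not used.

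Estimated counts were rounded, and rRNA genes and pseudogenes were left out of the random-primed fit and of all reported genes. Depleted and input libraries of one priming were compared by edgeR 4.0.16 in R 4.3.3 (quasi-likelihood, robust, TMM, default filter on low counts, Benjamini-Hochberg), without the replicate number as a block and, as an alternative, with it, and single ratios by exact permutation tests in scipy 1.17.1. DESeq2 1.42.0 was an alternative. Gene models were those of Ensembl release 115. The members and lists were chosen with earlier results of these data known. Named genes of the lists passed the random-primed test or had the 3 largest changes of their list, unless stated otherwise. The 5 nearest genes were sought for each member among 3546 genes with a mean of 20 or more estimated counts in every group. Each pool gave a depleted and an input library of either priming by the study's design, and libraries of the same number were taken as one pool. Their deviations from the group means correlated at 0.05, 0.22 and 0.30 in random-primed and 0.04, 0.29 and 0.53 in poly(A)-primed libraries. Depleted replicate 1 correlated more with input replicate 2, at 0.10 in random-primed and 0.285 in poly(A)-primed libraries. The correlations thus do not settle the pairing of replicates 1 and 2, on which the block rests. Replicates were separate pools of larvae. Without the block, p-values measure the spread between the libraries of a group, which holds pool differences and counting error. With the block, they measure the spread left after pool differences are taken out. No column of values was left unmapped.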

Additional observations from a re-analysis of the deposited data

How the results depend on the processing

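In random-primed libraries, 7 genes were called higher and 248 lower after depletion. The counts higher and lower were 15 and 441 with DESeq2, 3 and 159 with spike-in scaling, and 1 and 157 at an adjusted p under 0.01, and 19 genes were higher with no filter on low counts. Leaving out 1 library gave 1 to 7 higher and 142 to 293 lower. In poly(A)-primed libraries the counts were 95 and 367, against 4 and 119 with spike-in scaling and 11 and 146 at an adjusted p under 0.01, and 174 genes were higher with no filter. Leaving out 1 library gave 9 to 140 higher and 136 to 421 lower, the low ends without input replicate 1.

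The replicate block takes libraries of the same number as one RNA sample. With it, 266 genes were higher and 591 lower in random-primed and 789 and 1105 in poly(A)-primed libraries. The random-primed log2 fold change of HmgZ was then 0.38 with an adjusted p of 0.010 (edgeR), the 1 of 36 alternative values of the 3 genes to pass. The other alternatives gave HmgZ an adjusted p of 0.16 to 0.999 (edgeR, or DESeq2 for its own fit).

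Random-primed Dsp1 ran between -0.14 and 0.047 when 1 library was left out, and turned sign without input replicate 1. The intronic share of HmgZ, depleted minus input, was -0.12 percentage points, and it was -1.14, 0.62 and 0.17 without replicates 1, 2 and 3. The HmgZ fold under poly(A) priming ran from 1.37 to 1.71 on the log2 scale when 1 library was left out. Recovery also rests on equal numbers. As a ratio of group means, an alternative chosen after seeing the data, poly(A)-primed HmgZ was at 289.9% instead of 317%. The random-primed input libraries held 65 to 191 estimated counts per gene of the 3, which limits what could be seen there. The causes of these shifts were not tested.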
